A study of Mus musculus with 20 samples.

Results

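Fos, Fosb, Jun, Junb, Egr1, Egr2, Atf3, Nr4a1, Ier2 and Ier3 are immediate early genes, whose transcripts rise within minutes of a stimulus without new protein synthesis. They were 10 of the 29339 genes in the deposited heart table, chosen by gene name. The choice was made with their levels by genotype and library series, and the correlation between them, already in view. Those levels, differences and correlations are therefore given as a description without p-values, and tests are reported for other genes. The lists of other genes were also chosen with earlier results of these data known, so their tests and shares are not independent of that knowledge.

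Heart mRNA of C57BL/6 mice aged 8 weeks was sequenced in 20 libraries, to compare Tecrl-deficient mice (labelled TECRL-/-, KO) with wild-type mice (WT). The labels gave 5 libraries of male WT, 5 of male KO, 3 of female WT and 7 of female KO. The mice were killed by cervical dislocation under pentobarbital, and the hearts were frozen in liquid nitrogen. The labels name the tissue as heart without a chamber, and do not say which libraries came from which animal. The study describes fewer mice than there are libraries, so some libraries may share an animal, and SDs and fits over libraries may then measure partly technical spread. All groups shared strain, age and tissue. The library names form 2 series: one is numbered S1 to S12 with 3 libraries per labelled group, and the other holds WT1, WT2 and the 6 libraries TKO1 to TKO6. No library labelled female WT belongs to the WT/TKO series. In whole tissue, fewer cells of a type and less RNA per cell cannot be told apart.

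Fos and Fosb pair with Jun and Junb into the AP-1 transcription factor, and Atf3 is a related leucine zipper protein that can also pair with Jun. Egr1 and Egr2 are zinc finger factors, Nr4a1 is an orphan nuclear receptor, and Ier2 and Ier3 encode small proteins induced by the same signals. Their promoters respond to serum response factor with its ETS partners and to CREB, which are reached by MAP kinase and cyclic AMP signalling. In heart these genes respond to stretch, adrenergic drive, ischemia and tissue dissociation, and time between death and freezing can move them.

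The promoters are shown because 23 of the 45 pairs of members had a Pearson r above 0.5 across libraries (14 without S7), and CREB acts at a known core motif. RefSeq starts (GRCm38.p6) with a promoter window were found for 8 of the 10 genes. The core TGACG, or CGTCA on the other strand, was searched in the 250 bases before each start, and a gene counted if any of its starts had a match. It was present in 6 of the 8 genes (Fos, Fosb, Junb, Egr2, Atf3 and Nr4a1), compared with 19.8% of 27025 genes with such a window. The whole palindrome TGACGTCA, which contains both cores, was in 0 of the 8 genes and 1.77% of all genes. The CArG box, the motif of serum response factor, was searched as CC, 6 letters A or T, and GG in the same 250 bases. It was matched in 1 of the 8 genes (Egr2) and in 1.62% of all genes. Sites farther upstream or with other letters were not searched, and Egr1 and Ier2 had no window. Each line below gives the 120 bases before the start from 5′ to 3′ on the gene's strand, with the core in capitals. Windows are chr12:85473770-85473889 (+) for Fos, chr7:19310046-19310165 (-) for Fosb and chr8:84978749-84978868 (-) for Junb. The others are chr10:67537749-67537868 (+) for Egr2, chr15:101266726-101266845 (+) for Nr4a1 and chr4:95052223-95052342 (-) for Jun.
Fos: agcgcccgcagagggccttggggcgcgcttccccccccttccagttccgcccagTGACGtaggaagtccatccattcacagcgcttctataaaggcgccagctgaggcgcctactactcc
Fosb: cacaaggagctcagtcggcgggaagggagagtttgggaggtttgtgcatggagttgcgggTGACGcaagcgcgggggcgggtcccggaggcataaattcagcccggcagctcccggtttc
Junb: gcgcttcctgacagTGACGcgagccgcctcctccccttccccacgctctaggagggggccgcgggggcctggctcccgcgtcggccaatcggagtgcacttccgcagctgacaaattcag
Egr2: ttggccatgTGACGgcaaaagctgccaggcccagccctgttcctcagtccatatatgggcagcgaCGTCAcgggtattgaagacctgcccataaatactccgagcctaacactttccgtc
Nr4a1: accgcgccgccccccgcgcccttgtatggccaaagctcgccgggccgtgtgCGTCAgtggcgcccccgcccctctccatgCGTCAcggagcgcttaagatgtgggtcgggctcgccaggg
Jun: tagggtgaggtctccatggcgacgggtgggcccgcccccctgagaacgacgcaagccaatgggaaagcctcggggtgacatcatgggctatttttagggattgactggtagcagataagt
Fos carried the core at -66 and, outside the part shown, at -129. Nr4a1 carried it at -69 and -40, and further upstream at -233 and -213. Egr2 carried it at -111 and -55 of the start shown, while its starts at 67535499 and 67537566 had no core. Jun, shown for contrast, had no exact match in these letters, and neither did Ier3. The Jun window holds the similar letters tgacatca, which the search did not count. Such a match is a description of letters, not of binding.

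Total counts ran from 12540002 (TKO5) to 20038593 (S1) per library. Tecrl was not lower in the KO libraries, so the genotype labels were not checked by it. In CPM (counts scaled to library size by TMM) it ran from 60.26 to 99.35 in male KO and 70.33 to 95.17 in female KO. Male WT ran from 51.8 (S7) to 122.5 (WT1) and female WT from 75.41 to 85.1. Xist, transcribed from the inactive X, and 4 Y-linked genes checked the labelled sex. S7, S8 and S9, labelled male, had Xist at 251.6 to 324.7 CPM and no Y-linked counts. S4, S5 and S6, labelled female, had Xist at no more than 0.256 CPM and Y-linked genes at 180.7 to 202.9 CPM. The other 14 libraries matched their labelled sex. Whether the genotype labels of S4 to S9 hold was not tested, because neither Tecrl nor the sex-linked genes can check them. The direction of differences that rest on S4 to S9 is therefore only that of the labels. The fitted differences of the 10 genes and the gene lists are given with and without S4 to S9, and every group below is the group as labelled. Ventricular cardiomyocyte markers summed to 38040 (S7) to 57470 CPM, so heart muscle was present in all libraries. Atrial markers summed to 246 CPM or more in S5, S6, S7, S9, S10, S11 and S12 and to no more than 42.1 CPM in the other 13.

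Library S7 held the highest level of 9 of the 10 genes, all except Ier2. The 10 genes took 0.108% of all counts in S7 and 0.0219% in TKO5, the lowest library, with a median of 0.0279%. A library score, the median over the 10 genes of the log2 ratio of CPM to each gene's median, was 2.24 in S7. The next libraries were S9 at 0.83, TKO1 at 0.62 and TKO6 at 0.60, and the lowest was TKO5 at -0.55. All 10 genes were above their own median in both S7 and S9. High libraries were thus found among the labels male WT, male KO and female KO, and in both name series.

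**Figure D1:**
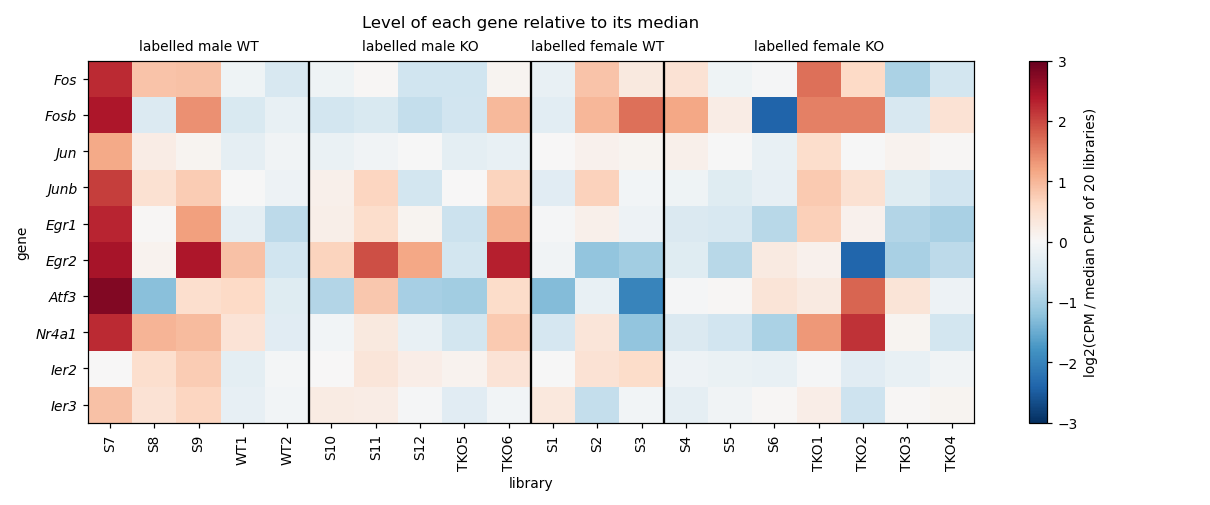
Heat map of log2(CPM / median CPM of the 20 libraries) for the 10 genes (rows) in each library (columns, ordered by labelled group, with black lines between groups). S7 is red in every row but Ier2, S9, TKO1 and TKO6 are red in most rows, and TKO2 is red for Nr4a1, Atf3 and Fosb and blue for Egr2.

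S7 also stood apart in tissue makeup. Its adipocyte markers summed to 381.7 CPM against no more than 14.6 in any other library, although Lep was at or under 3 counts in all 20. Mesothelial markers were at 293.6 CPM (others at most 101.8) and fibroblast markers at 1147 CPM (others at most 1006). Red blood cell markers were at 27.7 CPM, where all others had at least 154.7, and smooth muscle markers at 655.1 CPM, where all others had at least 930.1. Of the 10 marker lists, the mesothelial sum ran closest to the score of the 10 genes over 20 libraries (r = 0.832), without S7 (0.65) and in the S series (0.887). In the WT/TKO series it was at 0.577, below neutrophil (0.785) and ventricular cardiomyocyte markers (0.683). After S7 it was highest in S11 (101.8 CPM), TKO1 (56.8), S9 (56.5) and TKO2 (44.9). Adipocyte (0.735), fibroblast (0.642) and smooth muscle markers (-0.659) came next and fell to 0.239, 0.341 and -0.177 without S7, while neutrophil markers moved from 0.283 to 0.509. Mitochondrial genes took 15.3% of the counts of S7, the lowest share of the 20. The part of these differences in the level of the immediate early genes was not tested. S9 and S11 shared the atrial level of S7 (5888 and 7200 CPM against 7003) with scores of 0.83 and 0.32, whereas TKO1 and TKO6 reached 0.62 and 0.60 with atrial sums of 15.6 and 9.65 CPM.

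Levels between genes were compared as FPKM, which divides each count by exon length and library total, over all 20 libraries. Ier3 had the highest mean at 43.4 ± 14.3 FPKM (SD, n = 20) and was on top in 17 libraries, while Atf3 led in S7 and TKO2 and Junb in S2. Junb (25.1 ± 16.8), Jun (23.0 ± 7.77), Ier2 (22.6 ± 5.92), Atf3 (19.4 ± 22.4) and Nr4a1 (13.7 ± 11.7 FPKM) followed, and from Junb to Nr4a1 neighbours differed by less than their SD. Fos (5.89 ± 4.63 FPKM) and Egr1 (5.47 ± 4.79 FPKM) formed a lower pair. Fosb (0.621 ± 0.521 FPKM) and Egr2 (0.386 ± 0.407 FPKM) were the lowest, and Egr2 had only 2 counts in TKO2, under the floor of 3 counts used here. Per length, Jun and Junb together exceeded Fos and Fosb together in every library, with the other Jun and Fos family genes not counted. The ratio of Jun plus Junb to Fos plus Fosb in FPKM ran from 4.44 in TKO1 to 15.5 in TKO3, with a median of 8.66.

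**Figure D2:**
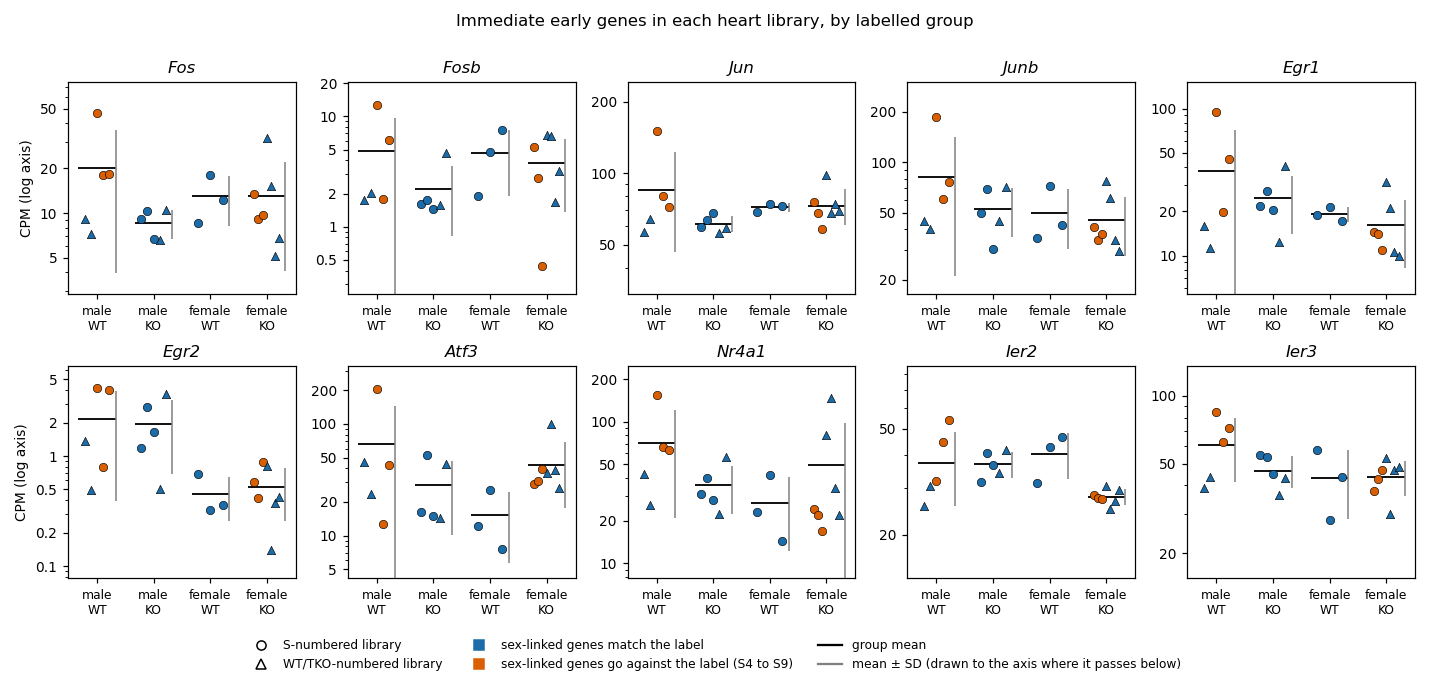
CPM of each gene (log axis) in the 20 libraries by labelled group, with circles for S-numbered and triangles for WT/TKO-numbered libraries. Orange marks S4 to S9, whose sex-linked genes go against their label, black lines are group means and grey lines the mean ± SD. In male WT the orange point of S7 lies above all others for every gene but Ier2.

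Fos (ENSMUSG00000021250, chromosome 12, 85473890 to 85477273, plus strand, GRCm38) encodes the short-lived Fos partner of AP-1. In male WT it measured 9.08 (WT1), 7.23 (WT2), 47.2 (S7), 18.01 (S8) and 18.4 CPM (S9). In male KO it measured 9.09 (S10), 10.3 (S11), 6.65 (S12), 6.59 (TKO5) and 10.5 CPM (TKO6). The 3 S-numbered WT libraries were above all KO libraries, and WT1 and WT2 lay among them. Female WT libraries had 8.55 (S1), 18.1 (S2) and 12.2 CPM (S3), and the 7 female KO libraries ran from 5.18 (TKO3) over a median of 9.7 to 31.7 CPM (TKO1). The female groups overlapped. The difference of KO from WT, fitted on the log2 scale, was -1.02 (SE 0.385) in male labels and -0.26 (SE 0.524) in female labels. In male labels it was -0.59 without S7 and 0.05 (SE 0.300) without S7 to S9, and in female labels 0.18 (SE 0.538) without S4 to S6.

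Fosb (ENSMUSG00000003545, chromosome 7, 19302696 to 19310051, minus strand), a second Fos family member, was scarce. It ran from 1.73 to 12.7 CPM in male WT, 1.45 to 4.67 CPM in male KO, 1.90 to 7.47 CPM in female WT and 0.444 to 6.73 CPM in female KO. S7 was highest and S6, with 7 counts, lowest. The male difference was -1.02 (SE 0.642) on the log2 scale, -0.42 without S7 and 0.72 (SE 0.486) without S7 to S9. The female difference was -0.72 (SE 0.691), and -0.03 (SE 0.523) without S4 to S6.

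Jun (ENSMUSG00000052684, chromosome 4, 95049034 to 95052222, minus strand) had the narrowest range of Fos, Fosb, Jun and Junb, and 232 of its exon bases overlap Junos on the opposite strand, whose reads could not be told apart here. In male WT it measured 56.5 (WT1), 63.9 (WT2), 151.2 (S7), 80.2 (S8) and 71.8 CPM (S9). Male KO libraries measured 59.1 (S10), 63.6 (S11), 68.01 (S12), 56.1 (TKO5) and 58.6 CPM (TKO6). S7 to S9 were again above all male KO libraries, and WT1 and WT2 were not. Female WT libraries held 68.6 to 74.3 CPM and female KO 58.3 to 98.7 CPM, with TKO1 on top. On the log2 scale the difference was -0.44 (SE 0.198) in male labels, -0.18 without S7 and -0.08 (SE 0.152) without S7 to S9. In female labels it was -0.10 (SE 0.159), and 0.10 (SE 0.152) without S4 to S6.

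Junb (ENSMUSG00000052837, chromosome 8, 84974484 to 84978718, minus strand) shares 173 exon bases with Prdx2 on the other strand. Male WT libraries measured 44.5 (WT1), 40.1 (WT2), 187.1 (S7), 60.9 (S8) and 75.9 CPM (S9). Male KO libraries measured 49.7 (S10), 69.5 (S11), 30.4 (S12), 44.9 (TKO5) and 70.9 CPM (TKO6). Below S7 the male groups overlapped. Female WT ran from 35.5 to 71.8 CPM and female KO from 29.8 to 77.4 CPM. The log2 difference was -0.51 (SE 0.391) in male labels, -0.06 without S7 and 0.44 (SE 0.341) without S7 to S9. In female labels it was -0.40 (SE 0.329), and 0.02 (SE 0.341) without S4 to S6.

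Atf3 (ENSMUSG00000026628, chromosome 1, 191170296 to 191218039, minus strand), a stress-induced repressor and activator, had the widest range of the abundant members. In male WT it measured 45.6 (WT1), 23.4 (WT2), 206.4 (S7), 12.6 (S8) and 42.5 CPM (S9). Its male KO levels were 16.2 (S10), 52.8 (S11), 14.9 (S12), 14.4 (TKO5) and 43.5 CPM (TKO6). The male groups overlapped, with S8 among the lowest. Female WT libraries had 12.05 (S1), 25.8 (S2) and 7.55 CPM (S3), and female KO libraries ran from 26.9 (TKO4) over a median of 36.2 to 99.7 CPM (TKO2). All 7 female KO libraries were above all 3 female WT libraries, by 26.9 against 25.8 CPM at the nearest pair. Fitted differences were 1.13 (SE 0.470) in female labels and 1.73 (SE 0.503) without S4 to S6, on the log2 scale. In male labels it was -1.11 (SE 0.690), -0.11 without S7 and -0.27 (SE 0.656) without S7 to S9.

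Egr1 (ENSMUSG00000038418, chromosome 18, 34859823 to 34864984, plus strand) is a growth factor and stretch responsive activator. In male WT it measured 15.9 (WT1), 11.3 (WT2), 94.6 (S7), 19.9 (S8) and 45.4 CPM (S9). In male KO it measured 21.7 (S10), 27.7 (S11), 20.5 (S12), 12.3 (TKO5) and 40.5 CPM (TKO6). WT1 was below 4 of the 5 KO libraries and WT2 below all 5, and S7 and S9 were above all of them. Female WT ran from 17.2 to 21.5 CPM and female KO from 9.9 to 31.8 CPM. The log2 difference was -0.38 (SE 0.518) in male labels, 0.13 without S7, -0.89 without TKO6 and 0.94 (SE 0.446) without S7 to S9. In female labels it was -0.56 (SE 0.354), and -0.07 (SE 0.359) without S4 to S6.

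Egr2 (ENSMUSG00000037868, chromosome 10, 67535475 to 67542188, plus strand), known from Schwann cells and lymphocytes, was near the detection limit in most libraries. It was highest in S7 (4.12 CPM), S9 (3.99), TKO6 (3.70) and S11 (2.81), which held 39 to 65 counts. No other library exceeded 1.65 CPM, and the 10 female libraries ran from 0.141 to 0.888 CPM. The male difference was -0.003 (SE 0.797) on the log2 scale, 0.27 without S7, -0.71 without TKO6 and 1.14 (SE 0.833) without S7 to S9. The female difference was 0.42 (SE 0.572), and without S4 to S6 the counts were too low for a fit.

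Nr4a1 (ENSMUSG00000023034, chromosome 15, 101254269 to 101274795, plus strand) responds to adrenergic and calcium signals. In male WT it measured 43.1 (WT1), 25.8 (WT2), 154.8 (S7), 66.6 (S8) and 62.9 CPM (S9). Male KO libraries had 31.1 (S10), 39.8 (S11), 28.05 (S12), 22.3 (TKO5) and 56.5 CPM (TKO6). S7 to S9 exceeded all male KO libraries. Female WT libraries had 23.2 (S1), 42.3 (S2) and 14.3 CPM (S3), and female KO ran from 16.9 (S6) over a median of 24.3 to 147.6 CPM (TKO2), with TKO1 at 81.1 CPM. TKO2 thus came close to S7 for Nr4a1 and had the second level of Atf3, while its Egr2, Ier2 and Ier3 ranked 20, 20 and 19 of 20. Fitted log2 differences were -0.87 (SE 0.406) in male labels, -0.47 without S7, 0.17 (SE 0.393) without S7 to S9, and -0.34 (SE 0.562) in female labels, where it was 1.42 (SE 0.595) without S4 to S6.

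Ier2 (ENSMUSG00000053560, chromosome 8, 84661331 to 84662852, minus strand) was the 1 member whose highest library was not S7. In male WT it measured 25.7 (WT1), 30.4 (WT2), 31.9 (S7), 44.4 (S8) and 53.8 CPM (S9), so S7 was in the middle. Male KO libraries ran from 31.5 to 41.6 CPM. Female WT libraries had 31.4 (S1), 42.8 (S2) and 46.4 CPM (S3), and female KO libraries 25.0 (TKO2) to 30.5 CPM (TKO1) with a median of 27.4. All 7 female KO libraries were below all 3 female WT libraries, by 30.5 against 31.4 CPM at the nearest pair. The log2 difference was -0.54 (SE 0.154) in female labels, -0.53 (SE 0.158) without S4 to S6, and -0.002 (SE 0.177) in male labels, where it was 0.42 (SE 0.186) without S7 to S9.

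Ier3 (ENSMUSG00000003541, chromosome 17, 35821684 to 35822923, plus strand), an early gene linked to cell survival, varied 3.02-fold over the 20 libraries. It ran from 39.03 to 84.9 CPM in male WT, 36.1 to 54.6 CPM in male KO, 28.1 to 57.2 CPM in female WT and 29.98 to 52.9 CPM in female KO. S7, S9 and S8 were the 3 highest libraries. The log2 difference was -0.35 (SE 0.129) in male labels, -0.25 without S7, -0.07 (SE 0.168) without S7 to S9, and -0.02 (SE 0.243) in female labels, where it was 0.05 (SE 0.248) without S4 to S6.

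Across the 10 genes, all 10 fitted male differences were below 0, from -1.11 to -0.002, with a median of -0.48 on the log2 scale. Egr2 and Ier2, both next to 0, turned positive with upper-quartile scaling. The median over all 14481 genes tested was -0.01, with 52.9% lower. Over all genes tested, 0% passed an adjusted p of 0.05 (edgeR quasi-likelihood test, Benjamini-Hochberg), with 13 genes by DESeq2 and 688 genes at unadjusted p under 0.05. No member separated the male groups, and 0.599% of 15187 genes did. Without S7 the median of the 10 genes was -0.145. Without S7 to S9, WT1 and WT2 are compared with TKO5 and TKO6 within their series, and 7 of the 10 genes were above 0 (Fos, Fosb, Junb, Egr1, Egr2, Nr4a1 and Ier2), with a median of 0.296. With the Y-linked level as a covariate the values were nearly those without S7 to S9, for example 0.02 for Fos and 0.91 for Egr1, with a median of 0.275. Among the S-numbered libraries alone, S10 to S12 against S7 to S9, the differences were larger, with a median of -1.14: -1.67 for Fos, -2.09 for Fosb and -1.52 for Nr4a1. There KO libraries carried Y-linked transcripts and WT libraries Xist, so genotype label and sex-linked genes cannot be told apart. S7 to S9 were above both WT1 and WT2 for 7 genes (Fos, Jun, Junb, Egr1, Nr4a1, Ier2 and Ier3), as were 15.8% of all genes.

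**Figure D3:**
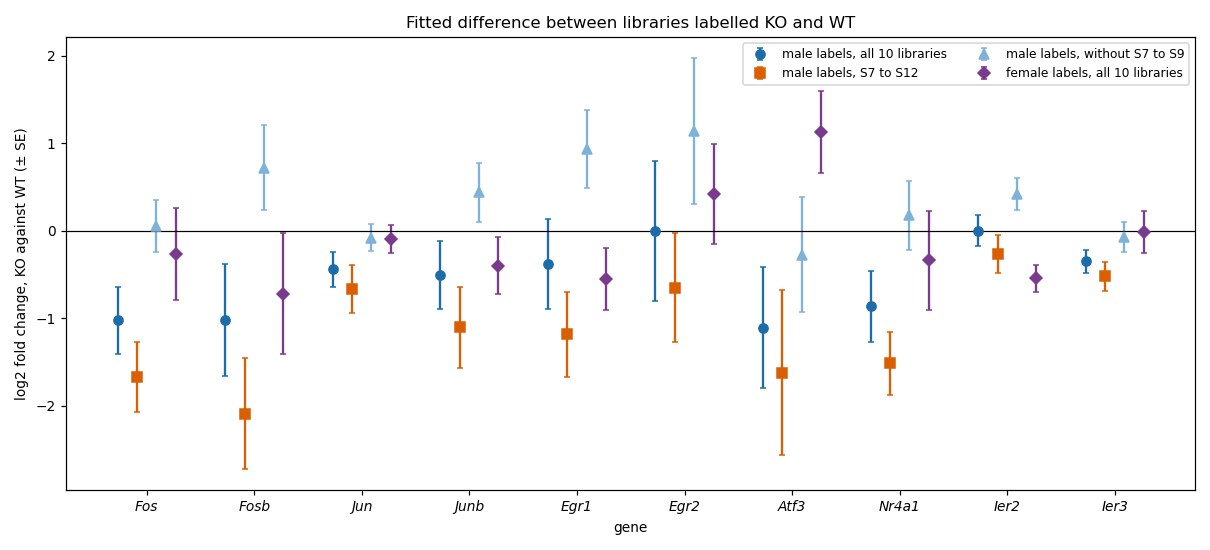
Fitted log2 fold change of KO against WT (± SE) for each gene, in male labels with all 10 libraries (blue circles), S7 to S12 alone (orange squares), without S7 to S9 (light blue triangles) and in female labels (purple diamonds). The orange squares are all below 0, down to -2.09 for Fosb, and 7 of 10 light blue triangles are above 0.

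In female labels, 8 of the 10 genes were lower and 2 higher (Egr2 and Atf3), with a median of -0.30 against -0.02 over 14511 genes. Because all WT libraries are S-numbered, the fit compares S4 to S6, which carried Y-linked transcripts, with S1 to S3. Ier2 was the 1 gene lower without overlap (2.28% of all genes) and Atf3 the 1 gene higher without overlap (2.54%). Without S4 to S6, S1 to S3 were set against TKO1 to TKO4, so that genotype and name series cannot be told apart. The median of the 9 genes tested there was then 0.05, with Atf3 and Nr4a1 the highest. Without series as a covariate, which sets all 7 KO libraries against S1 to S3, it was 0.014 with 6 genes higher, and Nr4a1 was at 0.90. Single libraries moved several values: without S2, Fos was at 0.06, Nr4a1 at 0.16 and Atf3 at 1.74, Fosb was at -1.55 without S4 and -0.21 without S6, and Ier3 was at 0.25 without S1. The male and female comparisons were fitted separately, and the difference between them was not tested.

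Within the libraries labelled KO, 6 TKO-numbered were compared with 6 S-numbered libraries, with labelled sex as covariate. All 6 S-numbered KO libraries carried Y-linked transcripts (149.8 to 202.9 CPM), whereas TKO1 to TKO4 carried Xist and no Y-linked counts, so series and sex-linked genes were partly confounded. TKO5 and TKO6 carried Y-linked transcripts, which allowed a fit that adjusts for their level. Without S4 to S6 the difference rests on S10 to S12 against TKO5 and TKO6, all with Y-linked transcripts. Of the 10 genes, 8 were higher in TKO and 2 lower (Egr2 and Ier3), with a median of 0.30 against 0.01 over 14540 genes. In limma on log2(FPKM + 1) the median was 0.0549 with 6 higher and 4 lower, and on log2(FPKM + 0.1) it was 0.0431 with 5 higher and 5 lower. Nr4a1 was at 1.15 (SE 0.444), at 0.74 without TKO2 and at 0.25 (SE 0.637) without S4 to S6. With the Y-linked level as a covariate Nr4a1 was at 0.28 (SE 0.569), and the median of the 10 genes was 0.0888 with 7 higher and 3 lower (Fos, Jun and Ier3). The next was Fosb at 0.80 (SE 0.461), at 0.52 without S6, 1.25 without S4 and 0.97 (SE 0.592) without S4 to S6. Atf3, at 0.38 (SE 0.386), was at 0.05 without TKO2, and Fos, at 0.26 (SE 0.360), was at -0.16 without TKO1. No member separated the series, where 5.43% of all genes did. The KO spread of Nr4a1 lay in the TKO libraries, at 60.6 ± 48.3 CPM (SD, n = 6) against 27.0 ± 7.95 CPM in the S libraries (SD, n = 6).

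Over all 20 libraries the 45 pairs of genes had a median Pearson r of 0.501 (Spearman 0.346) in log2 CPM, and 23 pairs exceeded 0.5. All points share libraries and normalization, so these are descriptions. Junb and Egr1 were the closest pair (0.889), followed by Fos and Junb (0.86), and Nr4a1 was closest to Junb (0.799). Atf3 was closest to Nr4a1 (0.707) and Egr2 to Egr1 (0.694). Ier2 had the lowest median, 0.25, with -0.315 against Atf3. That place rested on S7: without it the median of Ier2 was 0.352, with 0.615 against Egr1, and the lowest were Ier3 (0.0805), Egr2 (0.0943), Atf3 (0.125) and Jun (0.216). Without S7 the median fell to 0.318, with 14 pairs above 0.5 and 7 below 0, but Junb and Egr1 still gave 0.801, Fos and Junb 0.77. Centring within name series gave 0.498, and centring within group and series 0.423. The S-numbered libraries alone gave 0.619 and the WT/TKO-numbered 0.359.

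**Figure D4:**
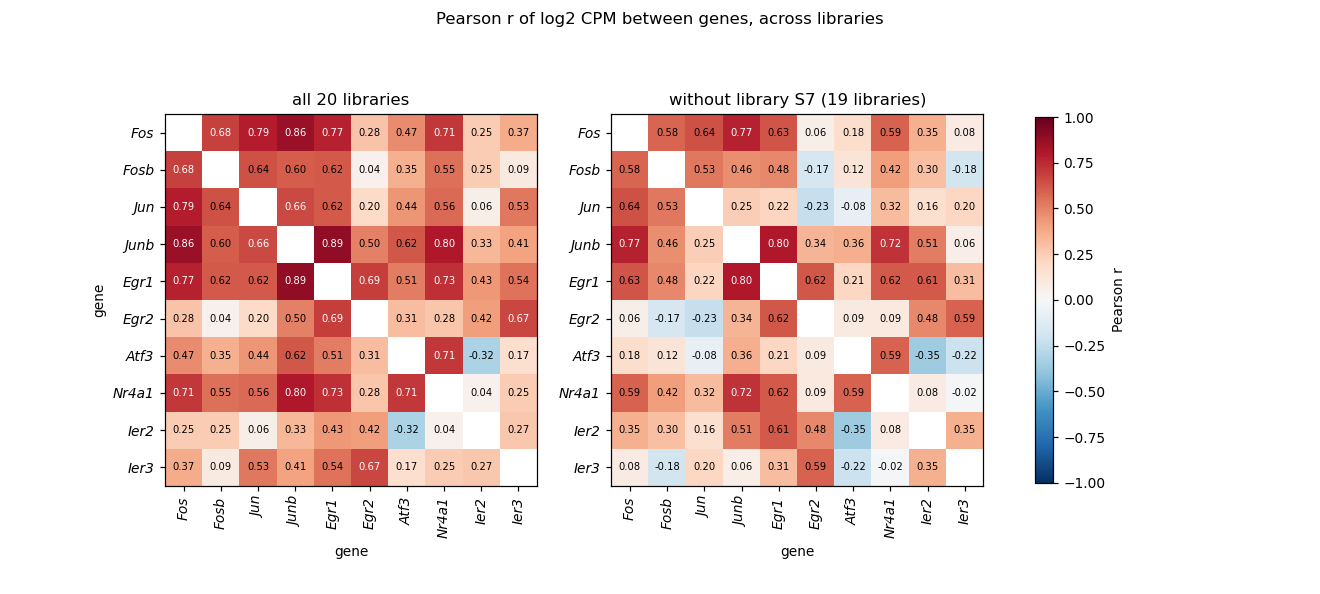
Pearson r of log2 CPM between each pair of genes over all 20 libraries (left) and over 19 without S7 (right), from blue (-1) to red (1). Fos, Junb, Egr1 and Nr4a1 form a red block in both panels, while the Jun, Egr2, Atf3 and Ier3 rows fade on the right.

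A list of 55 other early response genes was read in the same fits, and 52 were tested in each. In male labels 43 were lower and 9 higher, with a median of -0.22 and 0 at adjusted p under 0.05. Past the study's thresholds, an unadjusted p of 0.05 and an absolute log2 fold change of 0.58, were 5 as lower (9.62%, against 1.19% of all genes) and 0 as higher (0.905% of all genes). These were Csrnp1, Btg2, Dusp5, Sik1 and Tnfaip3, and without S7 there were 0. Without S7 to S9, 41 were higher and 11 lower, with a median of 0.14. In female labels the median was 0.01, with 25 lower, 27 higher and 0 at adjusted p, which 0.0551% of all genes passed. Past unadjusted p and fold were 4 as higher (7.69%, against 2.85% of all genes), Nr4a3, Cebpb, Ctgf and Hbegf. As lower there were 4 (7.69%, against 7.15% of all genes), Per1, Plk2, Plk3 and Nfkbiz. At adjusted p, DESeq2 called 4 of the list (383 of all genes), and edgeR without S1 called 9 (2409 of all genes). Without S4 to S6 the median was 0.09, with 29 of 51 higher and 0 at adjusted p, against 2.57% of all genes. Past unadjusted p and fold were then 7 of 51 (6 higher and 1 lower), against 2150 of 14235 genes. Of the genes named for female labels, only Nr4a3 was still among them.

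Between the name series, 6 of the 52 (11.5%) passed an adjusted p of 0.05, against 11.2% of all genes. Fosl2, a Fos family member with longer-lived protein, rose in TKO libraries by a log2 difference of 1.23 (adjusted p = 0.00544, edgeR). Sik1, a cyclic AMP induced kinase, rose by 1.12 (adjusted p = 0.0395, edgeR), Klf6 by 0.54 (adjusted p = 0.0206) and the phosphatase gene Dusp6 by 0.46 (adjusted p = 0.0212). The C/EBP family gene Cebpb was lower by -0.56 (adjusted p = 0.00762, edgeR) and the NF-kappaB inhibitor Tnfaip3 by -0.56 (adjusted p = 0.0126). Fosl2, Cebpb and Tnfaip3 passed with each library left out in turn, Klf6 and Dusp6 did not without S6 or without TKO6, and Sik1 did not without S4, S5, S6, S12, TKO1, TKO2 or TKO6 (adjusted p up to 0.114). Without S4 to S6, 1 gene of the list (Klf6, higher in TKO, at 0.75) passed, and 0.497% of all genes did. The other differences kept their direction there with fewer libraries behind them, at 1.01 for Fosl2, 0.94 for Sik1, 0.58 for Dusp6, -0.47 for Cebpb and -0.65 for Tnfaip3. With Y-linked CPM as a covariate the 6 differences also kept their direction, and adjusted p ran from 0.082 (Klf6) to 0.292 (Sik1, edgeR). Past unadjusted p and fold were 5 as higher (9.62%, against 5.19% of all genes) and 1 as lower (1.92%, against 5.85%).

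The most abundant genes of that list were Rhob (445.3 ± 75.3 CPM), Ctgf (286.4 ± 364.2), Sgk1 (277.1 ± 74.6) and Cebpd (145.4 ± 40.7 CPM, SD, n = 20 each). Rhob, a small GTPase, was lowest in S7 (248.4 CPM). Cebpd was highest there (281.9 CPM). Ctgf, a matrix-associated growth regulator and YAP target, reached 1747 CPM in S7, and Cyr61, of the same family, 605.7 CPM against 106.2 ± 126.1 over all. The chemokine Ccl2, at 8.10 CPM in S7, had the widest range together with Cyr61. None of these 6 passed an adjusted p in any of the 3 comparisons.

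Of 31 upstream kinases, factors and repressors, the medians were -0.05, -0.06 and 0.08 on the log2 scale in male labels, female labels and between series, and 0, 0 and 1 passed the adjusted p. Between series that was 3.23% of the list, against 11.2% of all genes. The 1 gene was Rps6ka3, a kinase that acts on CREB, higher in TKO libraries by 0.48 (adjusted p = 0.0208, edgeR) and by 0.72 without S4 to S6 (adjusted p = 0.0389, edgeR), although its adjusted p was 0.0586 without S6, 0.0612 without TKO6 and 0.0578 with the Y-linked covariate. Without S4 to S9 the medians of the list were -0.01, -0.04 and 0.04. Srf, encoding serum response factor, ran from 31.9 (S3) to 143.0 CPM (S7). It was lower in male KO by -0.57 (adjusted p = 0.882) and higher in female KO by 0.54 (adjusted p = 0.328), so neither passed. Nab2, a repressor of Egr proteins, ran from 2.12 (TKO1) to 12.1 CPM (S11). Among the most abundant of the list, Mef2d (120.7 ± 16.8 CPM), Mef2a (115.9 ± 19.2) and Map2k2 (108.7 ± 10.2 CPM, SD, n = 20 each), did not pass in any comparison.

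Among 12 heat shock chaperones, which also respond to tissue handling, the libraries on top differed. Hspa1a reached 149.1 CPM in S9 and 120.5 in S11, and Hspa1b 208.1 and 171.8 CPM, with 17.4 CPM or less of either in all others. In S7, the highest library for the immediate early genes, they were at 14.4 and 13.02 CPM. Only S9 and S11 had more Hspa1a than S7, and only S9, S11 and S5 had more Hspa1b. These genes are near-identical, so reads could be divided between them. Hspa1b was lower in TKO than in S-numbered KO libraries by -2.96 (adjusted p = 0.0461, edgeR), and no other chaperone passed the adjusted p in any comparison. DESeq2 gave no adjusted p for it. Past unadjusted p and fold, Hspa1a and Hspa1b were higher in female KO (16.7% of the list, against 2.85% of all genes) and lower between series (16.7%, against 5.85%). Without S4 to S6 neither passed in female labels, where Hsph1 and Hspd1 passed as higher (2150 of 14235 genes passed in either direction). Between series Hspa1a, Hspa1b and Hspb1 then passed as lower (1574 of 14274 genes in either direction). S11 carried much of the Hspa1b difference between series: the other 5 S-numbered KO libraries were at 1.66 to 17.4 CPM and the TKO libraries at 1.83 to 3.46, and without S11 the difference was -1.71 (SE 0.406, adjusted p = 0.0191, edgeR). Its adjusted p exceeded 0.05 without TKO1, TKO2, TKO3, TKO4, TKO5, TKO6, S5 or S6, up to 0.122, and was 0.134 without S4 to S6 and 0.102 with the Y-linked covariate. The most abundant chaperones were Hspa8 (1302 ± 389.8 CPM), Hsp90ab1 (1005 ± 145.7), Hspb1 (444.5 ± 316.2) and Hspd1 (324.8 ± 69.5 CPM, SD, n = 20 each), and Hspa8 and Hspb1 were highest in S11 (2490 and 1603 CPM). The median of the list was -0.08 in male labels, 0.27 in female labels and -0.17 between series, and -0.09, 0.32 and -0.47 without S4 to S9.

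The score of the 10 genes and the same score over 49 other early response genes had r = 0.898 (Spearman 0.779) over 20 libraries and 0.776 without S7. With the 12 chaperones r was 0.255 (0.345 without S7), with the mitochondrial share -0.444 (-0.03 without S7) and with the atrial sum 0.484 (0.255 without S7). In the S and WT/TKO series taken alone, r with the other early genes was 0.944 and 0.892. Single early genes did not all follow. Against the mean of the 8 members with at least 10 counts in every library, 25 of 49 exceeded r = 0.5, or 51%, where 9.17% of all 11946 genes searched did. Without S7 the shares were 30.6% and 2.28%. Arc was at -0.566 and Rhob at -0.453, and both were lowest in S7, without which they were at -0.003 and 0.164.

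**Figure D5:**
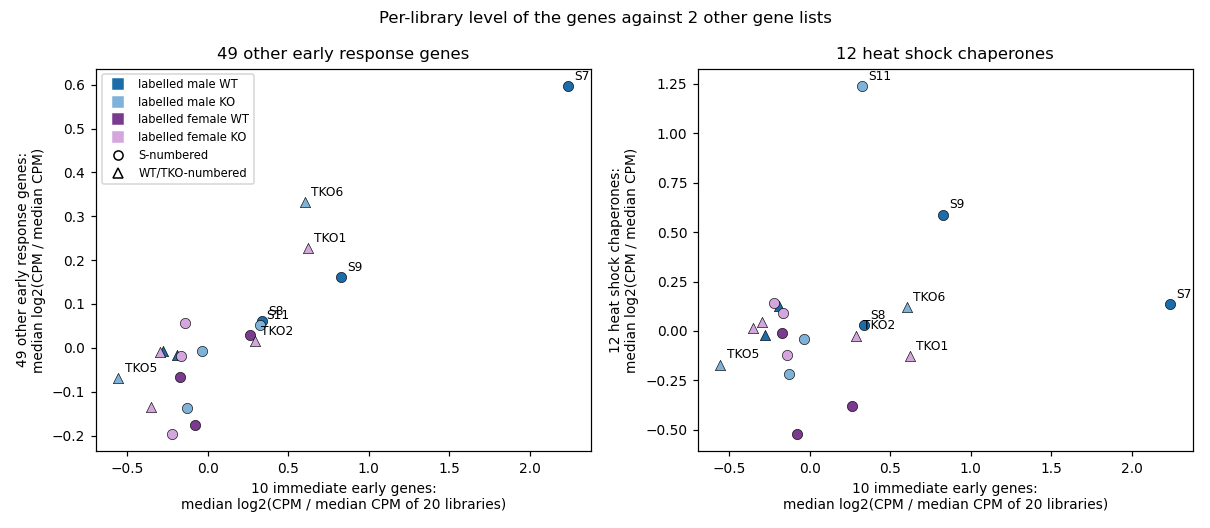
Library scores of the 10 immediate early genes (x) against 49 other early response genes (left) and 12 heat shock chaperones (right), each the median log2(CPM / median CPM), with colour for labelled group and shape for name series. S7 is at the upper right of the left panel (2.24 and 0.597), and S11 (0.324 and 1.24) is the highest point of the right panel.

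Egr2 and Fosb, with under 10 counts in some libraries, were left out of a mean of the standardised log2 CPM of the other 8 members. The genes outside the 10 most like that mean were Por (r = 0.938), Gadd45g (0.88), Hnrnpll (0.876), Igfbp3 (0.869) and Vdr (0.865), followed by P4htm, Sdc4, Myc, Lrrc32 and Cxcl1 (0.859 to 0.853). All 10 were highest in S7, and 3 (Gadd45g, Myc and Cxcl1) were on the early response list. Por, encoding cytochrome P450 reductase, kept the first place without S7 (0.866), running from 69.8 (S12) to 118.4 CPM (S9) besides 184.6 CPM in S7. Of the 10 most alike without S7, 2 (Por and Lrrc32) were among those with it, and 0 were on the early response list. That 0 depends on the cut at 10, because Gadd45g ranked 11 at r = 0.719, as high as the last of the 10 (0.719). Cxcl1 and Myc were at 0.694 and 0.685 without S7. Gadd45g, a stress-induced growth arrest gene, was at 356.7 CPM in S7, 122.2 in S9 and 92.8 in TKO2, against a median of 39.9 CPM.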

How the data were processed

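The authors deposited whole-number read counts per Ensembl gene, without normalization, and FPKM computed from the counts and 1 length per gene. The submitters' processing notes name HISAT2, HTSeq 0.6.1p2, DESeq2 1.26.0 and GRCm38. Of the identifiers, 29328 of 29339 were in GENCODE M21, and 28730 FPKM lengths were within 1% of its exon length. All columns were used. Strandedness was not given in the sources used here.

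Counts were TMM-normalized to CPM and fitted in edgeR 4.0.16 (quasi-likelihood, at least 10 counts in at least 3 libraries). KO was compared with WT within labelled sex with name series as covariate, and TKO with S-numbered libraries within KO. The thresholds were Benjamini-Hochberg adjusted p under 0.05 and, separately, unadjusted p under 0.05 with a log2 change of 0.58 or more in size, the study's choice. No p-value threshold was applied to the members' differences. Scripts were tested on simulated data. All 44 within-group pairs differed beyond counting noise (chi-square per degree of freedom of at least 11.4). The members and lists were chosen with earlier results of these data known. Named genes are the members, list genes past the adjusted p, the 4 most abundant and 2 widest of each list, and the 10 most alike genes; 1 of the list genes is not reported here. Alternatives were DESeq2 1.42.0, limma 3.58.1 on log2(FPKM + 1) or log2(FPKM + 0.1), other normalization, no filter, other covariates, parts of the libraries, and each library left out. Correlations within each name series, likeness without S7, marker sums against the score, the order of members in each library, and list genes refitted without each library were chosen after seeing the data. R 4.3.3 and Python 3.11.15 were used.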

Additional observations from a re-analysis of the deposited data

Results flagged for a closer look

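In 8 of 30 gene and group combinations (10 genes in male WT, male KO and female KO) the gap of 1 library to the rest of its group exceeded Dixon's critical value, used here only to pick values out. That value is passed by chance in about 1 in 20 single groups, but the genes were chosen with these levels in view and share libraries, so the number of combinations is not set against it. In male WT the library was S7 in all 4 cases: Fos at 47.2 CPM (next 18.4), Jun at 151.2 CPM (next 80.2), Junb at 187.1 CPM (next 75.9) and Atf3 at 206.4 CPM (next 45.6). In female KO it was TKO1 for Fos at 31.7 CPM (next 15.2) and Jun at 98.7 CPM (next 75.4), and TKO2 for Atf3 at 99.7 CPM (next 39.4). In male KO it was TKO6 for Fosb at 4.67 CPM (next 1.73).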

How the results depend on the processing

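The p and fold thresholds below are those of the study, and causes were not tested unless stated. Of the fitted log2 differences of 0.58 or more in size, those of Fos, Fosb and Nr4a1 in male labels turned from lower to 0.0545, 0.72 and 0.174 without S4 to S9. They were 0.0549, 0.722 and 0.175 with WT1, WT2, TKO5 and TKO6 alone, and 0.0233, 0.704 and 0.139 once Y-linked CPM was a covariate.

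The member median in male labels was -0.475, against 0.296 without S4 to S9, 0.275 with the Y-linked covariate, 0.175 with WT1, WT2, TKO5 and TKO6 alone and -1.14 in S-numbered libraries alone. Genes at adjusted p under 0.05 numbered 0 in edgeR, 13 with DESeq2, 59 without a filter, 5 in S-numbered libraries alone and 2 with WT1, WT2, TKO5 and TKO6 alone. Genes past p and fold numbered 303, against 852 without a filter, 51 with limma on log2(FPKM + 1) and 138 with the Y-linked covariate. Other early genes past p and fold numbered 5, against 3 with upper-quartile scaling, 12 without a filter, 0 and 1 with limma at pseudocounts 1 and 0.1, 2 without S4 to S9, 11 in S-numbered libraries and 0 with the Y-linked covariate.

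In female labels, genes at adjusted p numbered 8, against 383 with DESeq2, 1110 without a filter, 2 without the series covariate and 366 without S4 to S9. Genes past p and fold numbered 1450, against 2239 without a filter and 514 with limma on log2(FPKM + 1). The member median was -0.302, against 0.0487 without S4 to S9, 0.014 without the series covariate, and -0.168 and -0.188 with limma at pseudocounts 1 and 0.1. Other early genes at adjusted p numbered 0, against 4 with DESeq2 and 10 without a filter, and those past p and fold 8, against 5 with limma on log2(FPKM + 1) and 5 without the series covariate.

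Between series the member median was 0.3, against 0.0549 and 0.0431 with limma at pseudocounts 1 and 0.1, 0.112 without S4 to S9, 0.0888 with the Y-linked covariate, and 0.11 in male and 0.441 in female labels alone. Genes at adjusted p numbered 1622, against 2507 without a filter, 71 without S4 to S9, 93 with the Y-linked covariate (chosen after seeing the data), 7 in male and 924 in female labels alone. Genes past p and fold numbered 1605, against 3161 without a filter and 519 with limma on log2(FPKM + 1). Other early genes at adjusted p numbered 6, against 15 without a filter, 3 with limma at 0.1, 1 without S4 to S9, 0 with the Y-linked covariate, 0 in male and 3 in female labels alone.

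With each library left out in turn, male genes at adjusted p ran from 0 to 1, genes past p and fold from 205 to 484 and other early genes from 0 (without S7) to 8. Female genes at adjusted p ran from 1 to 2409 (2409 without S1), genes past p and fold from 640 to 2954, and other early genes from 0 to 9 at adjusted p (9 without S1) and 5 to 10 past p and fold. Between series, genes at adjusted p ran from 752 (without S6) to 1740, and other early genes from 3 to 8 at adjusted p and 2 to 10 past p and fold. The member median ran from -0.811 (without TKO6) to -0.145 (without S7) in male labels, -0.499 to -0.0597 in female labels and 0.0661 (without TKO1) to 0.423 between series. The median r of the 45 pairs ran from 0.318 (without S7) to 0.552.

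Of the members' fitted differences under the settings other than single libraries left out, 55 of 306 changed sign (27 in male labels, 11 in female labels and 17 between series), 9 of them from a main value of at least 0.58 in size. All 9 were in male labels, 3 each without S4 to S9, with WT1, WT2, TKO5 and TKO6 alone, and with the Y-linked covariate. These settings rest on nearly the same contrast and are not separate results. No paired analysis was possible because the labels number single libraries and the groups share no pairing. Egr2, at 2 to 65 counts, was limited by depth.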
